A study of Mus musculus with 5 samples.

Results

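The Sox factors of stem cells and neurons are transcription factors that share an HMG box. The 10 genes described here were chosen by name: Sox1, Sox2 and Sox3 of the SoxB1 group, Sox14 and Sox21 of SoxB2, Sox4, Sox11 and Sox12 of SoxC, and Sox9 and Sox10 of SoxE. They are 10 of the 19897 genes with a matched probe, and all 14 of their probes were used. Sox1, Sox4, Sox11 and Sox21 had 2 probes each, and the brighter one on average stood for its gene. RNA was measured in wild-type male mouse embryonic stem cells (ES) and at 4 later times of their differentiation to motor neurons, with 1 one-colour array per time. All 4 later samples had received retinoic acid (RA), and the labels add Shh as a second inducer, whereas the study's text names the smoothened agonist SAG. Day2 was the embryoid body stage 8 h into RA exposure, Day3 followed 1 day of RA, Day4 followed 2 days, and Day7 was labelled as motor neurons after 5 days, although the same labels also limit the inducers to days 2 to 5. These were whole cultures, so less RNA per cell and fewer cells of a type cannot be told apart in any value below. There were no replicates, so no p-value is given, and raised or lowered means a change of at least 2-fold.

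SoxB1 proteins keep stem cells and neural progenitors undifferentiated. Sox2 acts with Oct4 on pluripotency genes, and Sox1 and Sox3 take over much of its role in the neural plate. SoxB2 proteins bind the same sites but repress, SoxC proteins switch on genes of postmitotic neurons, and SoxE proteins act in neural stem cells, glia and neural crest.

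All 3 SoxC genes ended higher on Day7 than in ES cells, so the promoters of this group are shown. RefSeq windows of the mouse assembly GRCm38.p6 were found for 7 of the 10 genes, and Sox3, Sox9 and Sox10 had no entry. The 150 bases before the start site are printed on the gene's strand, 5′ to 3′. Capitals mark each CCAAT box in either orientation (CCAAT or ATTGG), a motif chosen after the windows had been seen. The Sox4 window is chr13:28953700-28953849, the Sox11 window is chr12:27342719-27342868 and the Sox12 window is chr2:152398047-152398196, all on the minus strand.
Sox4: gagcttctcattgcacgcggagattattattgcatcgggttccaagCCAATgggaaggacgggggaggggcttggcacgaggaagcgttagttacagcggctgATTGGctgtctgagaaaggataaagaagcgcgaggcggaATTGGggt
Sox11: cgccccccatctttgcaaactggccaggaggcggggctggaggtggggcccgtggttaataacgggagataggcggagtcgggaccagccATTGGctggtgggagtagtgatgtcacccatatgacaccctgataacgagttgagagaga
Sox12: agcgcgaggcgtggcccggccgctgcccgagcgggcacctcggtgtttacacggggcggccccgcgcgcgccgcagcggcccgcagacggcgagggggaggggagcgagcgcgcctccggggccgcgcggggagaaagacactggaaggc
The Sox4 window held 3 CCAAT boxes, the Sox11 window 1 and the Sox12 window 0. Outside SoxC, the windows of Sox2 and Sox14 held 1 each and those of Sox1 and Sox21 held 0. Among 32851 promoter windows of the same length, 24.5% held at least 1. GC content was 54.7% for Sox4, 59.3% for Sox11 and 80.0% for Sox12, beside a median of 54% over all windows. The TATA box (TATAAA) and the Sox core (CATTGT) were searched on both strands and found in none of the 3, and they occurred in 7.57% and 6.41% of all windows. The GC box (GGGCGG) occurred in 1 copy before Sox12, in none before Sox4 and Sox11, and in 28.6% of all windows. The letters alone do not show that a factor binds there.

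The quality of the arrays limits what follows. On Day2, 86.7% of the 55681 mouse probes were well above background, against 57.5% to 65.7% on the other 4 arrays, and 66.7% of ERCC probes, which match no mouse RNA, were too. Quantile normalization gives all arrays the same distribution, and under it Sox14, Sox21 and Sox10 came out lower on Day2 than under a plain shift of the array. Day7 alone was hybridized on the second slide, so slide and time cannot be told apart for it. The median SD between spots of 1 probe lay between 0.06 and 0.11 on the log2 scale, which covers error within an array only. All 14 probes were well above background on all 5 arrays, except that of Sox9 in ES cells, and no spot was saturated. Sox14 alone stayed close to the floor, the dimmest well-measured probe of an array, at 0.75 to 1.89 log2 above it.

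**Figure D1:**
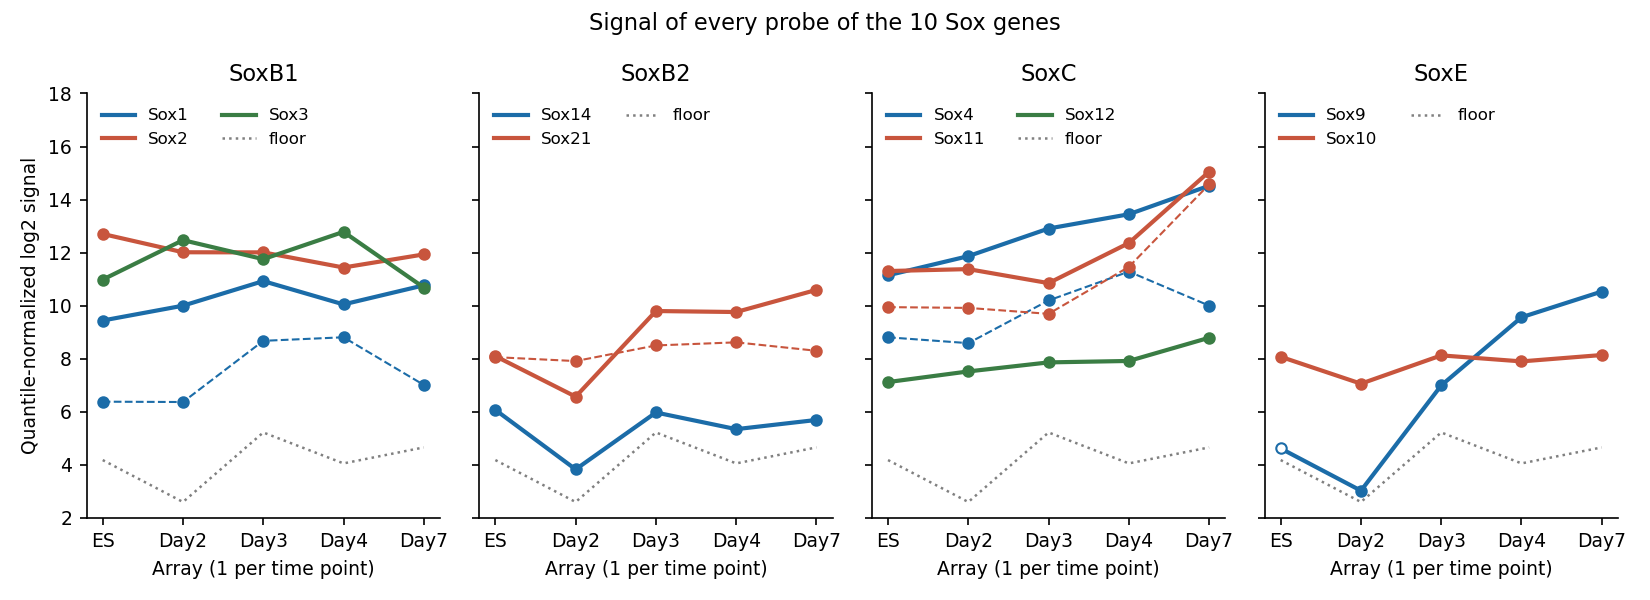
Quantile-normalized log2 signal of all 14 probes of the 10 Sox genes (y axis) on the 5 arrays (x axis), in 1 panel per group. Solid lines are the probe that stands for a gene, dashed lines the other probe, the open point is not well above background and the dotted grey line is the floor. Both Sox11 probes were brightest on Day7, at 15.05 and 14.57, whereas the Sox4 probes parted between Day4 and Day7.

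The SoxC genes were raised from ES cells to Day7, all 3 of them, beside 24.8% of the 15838 genes with a value. Sox4, which activates neuronal genes in cells leaving the cycle, read, in log2 signal after quantile normalization, 11.14 in ES cells and then 11.87, 12.91, 13.45 and 14.52 on the 4 later arrays. Each array was brighter than the one before it, and the change from ES to Day7 was 3.38 on the log2 scale (10.4-fold). The second Sox4 probe read 8.81, 8.59, 10.20, 11.28 and 10.001 over the same arrays. The probes agreed on the rise from ES to Day4, by 2.30 and 2.48. They disagreed after it, since from Day4 to Day7 the first changed by 1.08 and the second by -1.28. The direction of Sox4 in the last step is therefore uncertain.

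Sox11, which acts beside Sox4 on the same neuronal genes, read 11.31 in ES cells and then 11.38, 10.85, 12.36 and 15.05 on the 4 later arrays. ES and Day2 differed by 0.07, within the spread between spots, and the increase came after Day3, by 1.51 to Day4 and by a further 2.69 (6.46-fold) to Day7. The second probe gave 9.94, 9.92, 9.69, 11.46 and 14.57, with changes of 1.77 and 3.11 in these steps. From Day3 to Day4, 1.75% of the 15626 genes with a value had a larger increase than Sox11, whose change was the 275th from the top. Over the whole course it changed by 3.75 (13.4-fold), and 4.53% of genes were higher. Both probes thus placed the start of the increase at the same step.

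Sox12, the third SoxC gene and the one with the mildest known requirement, read 7.12, 7.52, 7.86, 7.92 and 8.79 from ES cells to Day7. No single step reached 2-fold, Day3 and Day4 differed by 0.05, and the sum over the course was 1.67 (3.18-fold). Over the alternative processings, the other probe included, the change from ES to Day7 ranged from 1.19 to 3.38 for Sox4, from 3.25 to 4.63 for Sox11 and from 1.38 to 2.11 for Sox12. All of these pass 2-fold.

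The genes known as SoxC targets were raised in the step in which Sox11 gained most. From Day4 to Day7, 4 of 4 were raised, with a median log2 change of 5.64. In that step 18.1% of the 16082 genes with a value were raised and 18.1% were lowered, with a median over all genes of -0.12. Tubb3, a tubulin of neurons, changed by 4.18, Dcx, a microtubule protein of migrating neurons, by 7.58, Stmn1 by 1.99 and Stmn2, a stathmin of growing axons, by 7.09. From ES to Day4, where both Sox4 probes had already gained over 2 log2 units, Tubb3 changed by 0.60, Stmn1 by 0.03 and Stmn2 by -2.93. Only Dcx was raised over that span, by at least 3.84, beside 17.0% of all genes raised and 14.4% lowered. Rest, the repressor that holds neuronal genes off outside neurons, changed by -1.14 from ES to Day4 and by -1.71 from Day4 to Day7. All 5 pan-neuronal markers and all 6 motor neuron markers were raised from Day4 to Day7, and on Day7 all 11 stood well above background, the neuronal ones between 12.62 and 16.50 and those of motor neurons between 10.65 and 15.54. Tubb3 and Dcx belong to both the SoxC targets and the pan-neuronal markers, so these counts share genes. The part that a larger share of neurons had in the SoxC values was not tested.

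**Figure D2:**
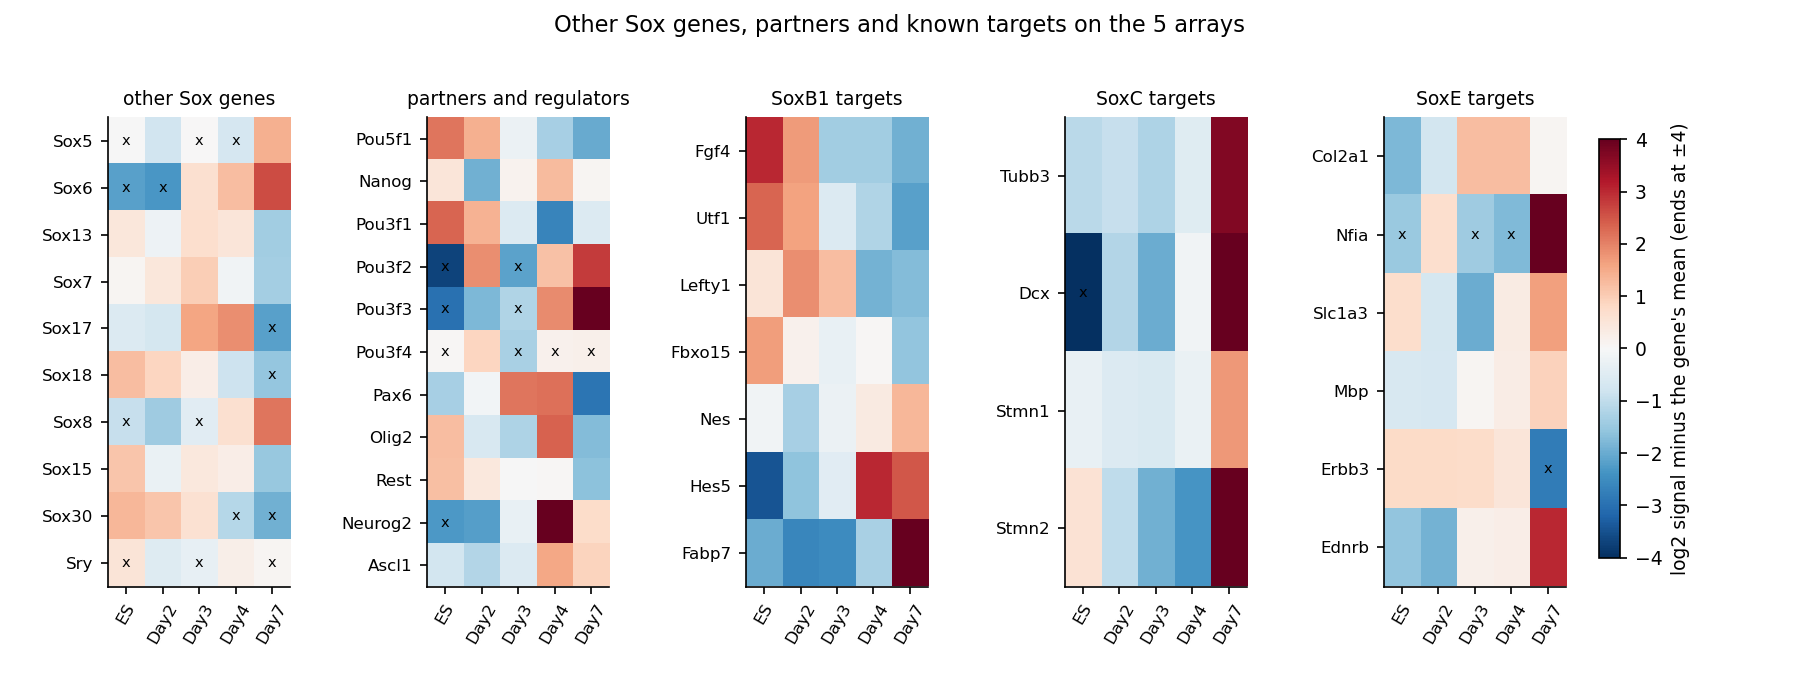
Heat maps of the other Sox genes, of partners and regulators, and of genes known as targets of SoxB1, SoxC and SoxE, with genes as rows and the 5 arrays as columns. Colour is the log2 signal minus the gene's own mean over the arrays, ending at 4 in either direction, and a cross marks a probe not well above background. The 4 SoxC targets were brightest on Day7, where Dcx stood at 15.60 against 3.99 in ES cells.

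The SoxB1 genes did not move as a group. Sox2 was brightest in ES cells at 12.70, followed by 12.01, 12.01, 11.44 and 11.93. Day2 and Day3 did not differ beyond the spread between spots. From ES to Day4 Sox2 was lowered by 2.40-fold, a change of -1.27 that lay between -2.54 and -1.20 over the alternative processings. It stayed 7.28 log2 above the floor on Day7, where it had changed by -0.77 from ES cells. Pou5f1, which encodes its partner Oct4, changed by -3.50 from ES to Day4 and by -4.17 from ES to Day7.

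Sox3, a factor of early neural progenitors, read 10.98 in ES cells and then 12.47, 11.75, 12.78 and 10.68 on the 4 later arrays. It was the only member raised on Day2, 8 h into RA, by 1.49 on the log2 scale (2.80-fold). In that step 10.7% of the 18316 genes with a value were raised and 11.3% were lowered. By the probes that stood for the genes it was also the only member lowered from Day4 to Day7, beside 18.1% of 16082 genes. It fell by 4.28-fold, a change of -2.10, and 3.68% of genes had a lower value. Without normalization the change was -0.74, under 2-fold, and with the other probe Sox1 (-1.80) and Sox4 (-1.28) were lowered as well. Sox3 was thus high on Day2 and Day4 and changed by -0.30 over the whole course.

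Sox1, a marker of the neural plate, read 9.44, 9.999, 10.93, 10.05 and 10.77 in the 5 arrays in order. Its second probe read 6.38, 6.37, 8.67, 8.81 and 7.01. By both probes Sox1 was raised from ES to Day3, by 1.49 and by 2.29. From ES to Day4 the changes were 0.61 and 2.43, so the call depended on the probe. From Day4 to Day7 they disagreed, with changes of 0.72 and -1.80, so the level of Sox1 in the motor neuron sample relative to Day4 is uncertain. From ES to Day3, 4 of the 10 genes were raised (Sox1, Sox21, Sox4 and Sox9) and 0 were lowered, with 15.6% of all 15203 genes raised and 10.2% lowered.

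Known SoxB1 targets went in both directions. From ES to Day4, 4 of 7 were lowered, all genes of the pluripotent state, with log2 changes of -4.41 for Fgf4, -3.53 for Utf1, -2.41 for Lefty1 and -1.60 for Fbxo15. In that comparison 14.4% of all 15838 genes with a value were lowered and 17.0% raised. Hes5, a Notch effector of neural progenitors, was raised by 6.49, while Nes changed by 0.52 and Fabp7 by 0.70. From Day4 to Day7 Fabp7, a fatty acid binding protein of radial glia, changed by 9.70, and Fbxo15 by -1.64. Partners of SoxB1 factors in neural cells changed too: Pou3f2 was raised by at least 4.36 from ES to Day4 and Pou3f3 by at least 2.85, whereas Pou3f1 changed by -4.99. Pax6, which works with Sox2 at enhancers of eye genes, was raised by 3.51 to Day4 and then fell by 5.11 to Day7. Olig2, the factor of motor neuron progenitors, changed by 1.13 and then by -4.12. All 6 pluripotency markers remained well above background on Day7, between 8.22 and 10.88. Still, 5 of 6 were lowered from ES to Day7, beside 24.4% of all genes. Nanog was the sixth, at 9.20 in ES cells and 8.80 on Day7. The part that remaining stem cells or progenitors had in the Day7 signal of Sox2 and Sox1 was not tested.

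**Figure D3:**
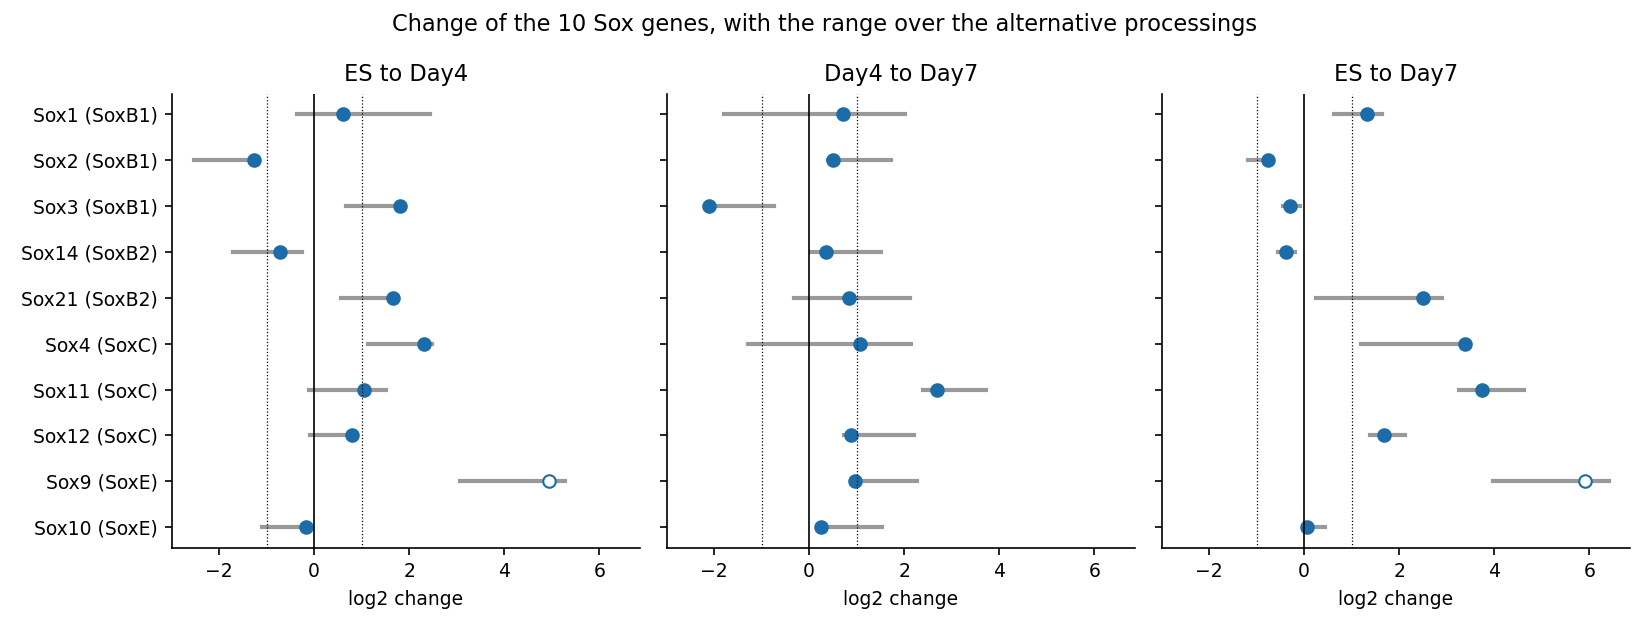
Log2 change of each Sox gene in 3 comparisons (x axis), with genes in rows and their group in brackets. Points are the main values, open where the value is a lower bound, grey bars span the alternative processings, the other probe included, and dotted lines mark 2-fold. Sox3 lay at -2.10 from Day4 to Day7, while Sox11 lay at 2.69 with a bar wholly above the line at 1.

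In the SoxB2 group the 2 genes differed. Sox21, which promotes neuronal differentiation by opposing SoxB1, read 8.10 in ES cells and then 6.57, 9.80, 9.76 and 10.60 on the 4 later arrays. The Day3 and Day4 values did not differ beyond the spread between spots. Sox21 was raised by 1.70 from ES to Day3 and by 2.50 (5.65-fold) from ES to Day7. Its second probe showed little of this, with 8.06, 7.91, 8.50, 8.62 and 8.30, and a change of 0.24 from ES to Day7. The rise of Sox21 therefore rests on 1 of its 2 probes.

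Sox14, a repressor found in some ventral interneurons, read 6.07 in ES cells and then 3.83, 5.97, 5.34 and 5.69 on the 4 later arrays. Apart from Day2 its values lay within 0.73 of each other. Of the V2 interneuron markers, which label cells next to motor neurons, Tal1 was raised from Day4 to Day7 by 1.09, whereas Gata2 and Gata3 changed by -0.44 and -0.45. In that step 18.1% of all genes were raised. From ES to Day4 Gata3 changed by 1.52, Gata2 by 0.89 and Tal1 by -1.68, with 17.0% of all genes raised and 14.4% lowered. From ES to Day7 the changes were 1.07 for Gata3, 0.45 for Gata2 and -0.59 for Tal1, with 24.8% of all genes raised.

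The low Day2 values of Sox14, Sox21 and Sox10 depended on the scaling. These 3 were the members lowered from ES to Day2, beside 11.3% of 18316 genes, with log2 changes of -2.24, -1.53 and -1.01. Under a shift of every array to a common 75th percentile the changes were -0.48, -0.78 and -0.42, none of them 2-fold. The processed signals of Sox14 before any scaling were 69.0 in ES cells and 58.0 on Day2. Sox9 at that time was no brighter than the limit set by the ES array and has no fold.

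Sox9, which works in neural stem cells and in the switch to glia, gained most of the 10 genes. Its probe did not stand well above background on the ES array, at 4.62, and read 3.02, 6.99, 9.56 and 10.53 on the 4 later arrays. The change from ES was at least 2.38 on Day3, at least 4.95 (at least 30.8-fold) on Day4 and at least 5.92 (at least 60.4-fold) on Day7. Over the alternative processings the bound ranged from 1.04 to 2.58 for Day3, from 3.07 to 5.28 for Day4 and from 3.98 to 6.40 for Day7, and was lowest under normexp background correction each time. The step from Day3 to Day4, 2.57 (5.94-fold), was the 59th from the top among the signed changes of 15626 genes. In the last step it changed by 0.97, just under 2-fold.

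The Sox9 probe was printed as 10 spots, the only probe of the 14 with more than 1, so its error within an array could be measured. Before normalization the log2 signal was 4.64 ± 0.26 in ES cells and 5.06 ± 0.22 on Day2 (SD, n = 10 spots of 1 array). It was 6.46 ± 0.11 on Day3, 8.77 ± 0.08 on Day4 and 11.04 ± 0.04 on Day7, with the same n. Spots of ES and Day2 overlapped, since the highest in ES cells was 5.13 and the lowest on Day2 was 4.68. From Day3 on no spot overlapped with those of another array. The SD fell as the signal grew, and it holds no variation between cultures.

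**Figure D4:**
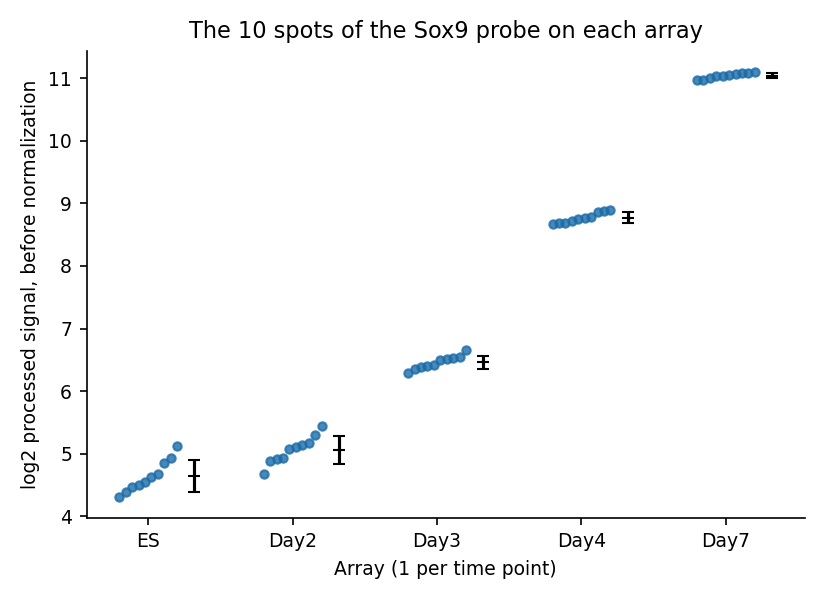
Log2 processed signal, before normalization between arrays, of the 10 spots of the Sox9 probe (y axis) on each of the 5 arrays (x axis). Points are spots sorted by value, and the bar beside them is the mean with SD. ES and Day2 spots overlapped, and the Day7 spots lay between 10.97 and 11.10.

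Sox10, the factor of neural crest and oligodendrocytes, read 8.07, 7.06, 8.13, 7.90 and 8.14 in order. ES, Day3 and Day7 lay within 0.07 of each other, within the spread between spots, and Day2 was the low value described above. Sox8, the remaining SoxE gene, was near background in ES cells and on Day3 and was raised by at least 2.50 from ES to Day7. Of 6 known SoxE targets, 4 were raised and 1 was lowered from ES to Day7, when 24.8% of all 15838 genes were raised and 24.4% were lowered. Ednrb, an endothelin receptor, changed by 4.58, Nfia, a glial switch factor, by at least 4.01, Col2a1, a cartilage collagen, by 1.88, and Mbp, a myelin protein, by 1.56. Erbb3, a neuregulin receptor of neural crest and Schwann cells, was lowered, with a bound of -1.07, and was not well above background on Day7. Slc1a3, a glutamate transporter of glia, changed by 0.94.

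Markers of cells in which SoxE genes are known to act were set beside these values, first for the span from ES to Day4 in which Sox9 gained most and in which 17.0% of all genes were raised and 14.4% lowered. Of 4 oligodendrocyte lineage markers, Pdgfra was raised, by at least 3.35, and Mog was lowered, with a change of -1.51. No astrocyte or neural crest marker was raised in that span, and Aqp4 and Foxd3 were lowered, with changes of -2.21 and -5.66. Of 5 endoderm markers, 4 had a value and 3 were raised, Gata6 by 4.27, Sox17 by 2.41 and Foxa1 by 1.76. Of 4 mesoderm markers, 3 had a value, and Meox1 was raised, by at least 4.41, and T was lowered, with a bound of -3.15. Of the oligodendrocyte lineage markers, 0 were raised and 0 lowered from Day4 to Day7, beside 18.1% of all genes in each direction. All 4 were well above background on Day7, between 5.68 and 12.22, but 3 of them already were in ES cells. Their median was 8.32 in ES cells and 7.93 on Day7. Of 4 astrocyte markers, Slc1a3 and Aldh1l1 were raised from Day4 to Day7, by 1.33 and 1.13, and Gfap was not well above background on Day7. Among 5 neural crest markers, Ngfr, which motor neurons also carry, was raised by 5.79, Foxd3 by 1.37 and Snai2 by 1.08, while Tfap2a was lowered, with a change of -1.01, and Tfap2b was not well above background on Day7. Of the endoderm markers, 1 was raised and 3 were lowered from Day4 to Day7. Foxa1 changed by 3.62, Gata6 by -3.85 and Gata4 by -2.54, and Sox17 had a bound of -4.02. Col2a1 had its highest values on Day3 and Day4, at 13.84 and 13.85, and read 12.69 on Day7. Over the whole course Ngfr was raised by 4.98 and Foxd3 was lowered, with a change of -4.29. Snai2 changed by 0.50 and Tfap2a by -0.52. From ES to Day7 24.8% of all genes were raised and 24.4% lowered. Mbp and Slc1a3 belong to both the SoxE targets and these markers. The part of glia, neural crest, cartilage, mesoderm or endoderm in the Sox9 signal was not tested.

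Over the 4 groups, 5 of 10 genes were raised and 1 was lowered from ES to Day4, with 17.0% of all genes raised and 14.4% lowered. With the other probe the count was also 5, but Sox1 took the place of Sox21, since Sox1 then changed by 2.43 in place of 0.61 and Sox21 by 0.56 in place of 1.66. The median change of the 10 was 0.93, beside 0.05 over all genes. Under the 75th percentile shift 4 were raised from ES to Day4, since Sox11 changed by 0.85. Without normalization Sox11 changed by -0.11 in that comparison. From Day4 to Day7, 2 were raised, Sox4 and Sox11, and 1 was lowered, Sox3, beside 18.1% of all genes in either direction. Sox4 counts here by its brighter probe, and with the other probe of the 4 genes that have 2, 1 was raised and 3 were lowered. The median was 0.78 for the 10. From ES to Day7, 6 were raised and 0 lowered, beside 24.8% and 24.4% of all genes, with medians of 1.499 for the 10 genes and -0.07 for all genes. With the other probe 4 were raised, since Sox1 then changed by 0.63 and Sox21 by 0.24. By group the changes from ES to Day7 ran from -0.77 to 1.33 in SoxB1, from -0.38 to 2.50 in SoxB2, from 1.67 to 3.75 in SoxC and from 0.07 to at least 5.92 in SoxE. The SoxC range thus lay above the SoxB1 range, while SoxB2 and SoxE each held 1 gene that changed little and 1 that was raised.

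**Figure D5:**
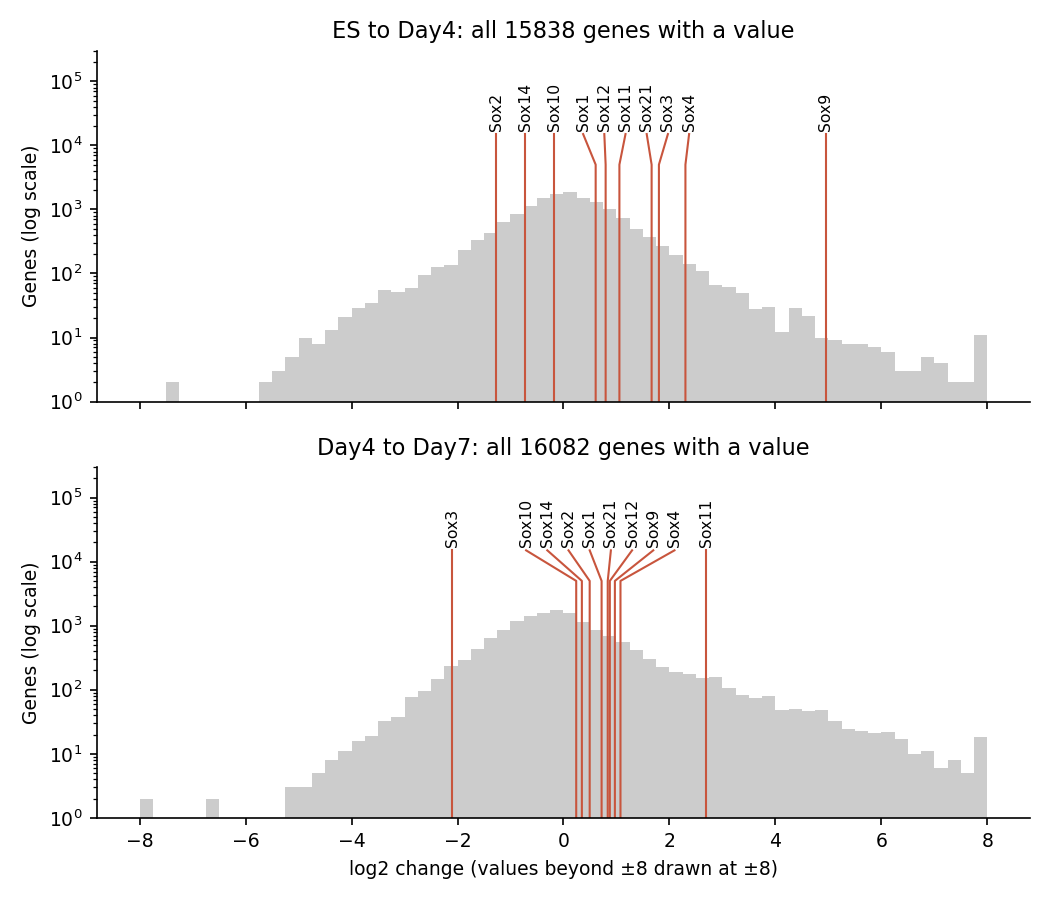
Histograms of the log2 change of all genes with a value (grey, log scale on the y axis) from ES to Day4 and from Day4 to Day7, with the 10 Sox genes as labelled red lines. Sox9 lay far to the right from ES to Day4, at its bound of 4.95. From Day4 to Day7 Sox3 and Sox11 stood apart from the other 8 genes, at -2.10 and 2.69.

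Of 10 further Sox genes, Sox8 included, 9 had a value from ES to Day7, 2 were raised (Sox6 and Sox8) and 6 were lowered, with a median change of -1.61, beside 24.8% of all genes raised and 24.4% lowered. Sox6, a SoxD gene that acts in neural progenitors and glia, was raised by at least 3.34. Sox17, a factor of endoderm and blood vessels, was raised by 2.41 from ES to Day4 and then lowered, with a bound of -4.02, from Day4 to Day7. Sox15, which is expressed in stem cells, changed by -2.61 over the course and Sox13 by -1.85.

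Genes with the profile most like that of a Sox gene were sought among 16155 genes, by the root mean square difference of 5 log2 values after each gene was centred on its mean. Those nearest to Sox11 were Scrt2, at 0.21, Prr18, at 0.27, and Atp9a, at 0.29. Scrt2 encodes a repressor found in newly born neurons. Nearest to Sox9 were Mir124-2hg, the host transcript of a neuronal microRNA, at 0.14, then Vit at 0.31 and Scube1 at 0.36. Nearest to Sox3 were Wdr95 at 0.17, Mmp14 at 0.21 and 2810021J22Rik at 0.23, and among those nearest to Sox4 were Mvb12b at 0.12 and Ddah2 at 0.14. For the other 6 genes the nearest one differed by 0.03 to 0.10. Among the Sox genes themselves the nearest pair was Sox1 and Sox12, at 0.38, and Sox9 had no member nearer than 1.56. With 5 arrays and so many candidates such likeness is a description only.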

How the data were processed

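RNA of 5 samples was hybridized to 1 Agilent one-colour array each. The authors deposited spot intensity values, background-subtracted by Agilent Feature Extraction (version 10.5.1 in the submitters' processing notes), and a table of log2 values, of which 99.5% to 99.6% per array equalled the log2 processed signal less a constant (tolerance 0.01). Its changes for the Sox genes differed from those of a 75th percentile shift by at most 0.00271 on the log2 scale. Groups followed the labels. The study names quantile analysis, so log2 processed signals without control spots and outliers were averaged for each probe, and quantile normalization was run with limma 3.58.1 in R 4.3.3. Python 3.11.15 with numpy 2.4.6, pandas 2.3.3 and matplotlib 3.10.9 did the rest. Of 55681 probes, 26300 matched RefSeq accessions of GRCm38.p6 (19897 genes, 5339 with several probes).

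A probe not well above background was set to the floor, or kept its own value if higher, and the change is then a bound, written "at least". No change was computed for genes above background on neither array. Changes of 2-fold were counted, and the steps were tested on simulated data. Intensities are limited in precision by 1 array per time point. Members, gene lists and markers were chosen with earlier results of these data known. Named genes were all members, the lists of other Sox genes, partners and targets, cell type markers, and the 3 nearest profiles per member. Several genes stand in more than a single list, so counts from different lists are not independent. Some genes of these lists were counted without being named, and a few others are not reported here and entered no list count. Alternatives were a 75th percentile shift, no normalization, normexp (offset 50), the deposited log2 values, another detection flag, no floor, detection on both arrays, a floor at the 90th percentile of ERCC probes, the mean over probes, and 1.5-fold and 4-fold limits. A block for slide was also listed but was not run, since a single array filled the second slide. The other probe of a gene, and Day2 left out of normalization, were chosen after seeing the data.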

Additional observations from a re-analysis of the deposited data

How the results depend on the processing

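No paired analysis was possible because single arrays stood for the time points. For the same reason no array could be left out of a comparison, and no fit with slide as a term could be made. Counts of the 10 genes that moved by over 1.5 times were as follows, and the causes were not tested. With the 75th percentile shift, as with the deposited log2 values, 1 was lowered from ES to Day2, 1 was raised from Day4 to Day7 and 1 was lowered from ES to Day7. Without normalization, 2 genes passed upwards and 0 downwards from ES to Day2, 2 raised and 3 lowered from ES to Day4, and 9 raised and 0 lowered from Day4 to Day7. That setting moved the median of all genes by 0.27, -1.11 and 1.18 in these comparisons. Under normexp 0 were lowered from ES to Day2. The mean over probes raised 1 from Day4 to Day7, and the other probe raised 1 and lowered 3. At 1.5-fold 2 were raised from ES to Day2, 2 lowered from ES to Day4, 6 raised from Day4 to Day7 and 1 lowered from ES to Day7. At 4-fold 0 genes passed upwards and 1 downwards from ES to Day2, 2 raised and 0 lowered from ES to Day4, and 1 raised from Day4 to Day7. Smaller moves included 4 genes raised from ES to Day7 with the other probe and at 4-fold, and 5 with the mean over probes, 4 raised from ES to Day4 under the 75th percentile shift and 7 at 1.5-fold, and 4 lowered from ES to Day2 with no floor or the other flag. From Day4 to Day7 directions turned for Sox4, to -0.10 as the mean over probes and -1.28 with the other probe, for Sox1, to -0.54 and -1.80, and for Sox21, to -0.32 with the other probe, which also turned Sox4 from ES to Day2 (-0.22) and Sox1 from Day3 to Day4 (0.13). Without normalization changes past 2-fold turned for Sox14 (-0.54) and Sox10 (-0.31) from Day2 to Day3 and for Sox11 (-0.11) from ES to Day4, and smaller ones for Sox1 (-0.36) and Sox12 (-0.09) from ES to Day4 and for Sox12 (-0.91) from Day2 to Day3. Smaller turns, of values within 1.5-fold of the main one, are not listed. Leaving Day2 out of the normalization moved no count or call between the other arrays. Sox14 and the ES and Day2 values of Sox9 lay near background, which limits their precision. So does the level of the ERCC probes on Day2 for Sox21 and the second Sox1 probe, which lay below it.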
